A study of Danio rerio with 2 samples.

Results

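Chaperones and folding factors help proteins reach and keep their shape. They were taken from the deposited expression table by gene symbol, as every row beginning with hsp, dnaj, fkbp, calr or canx, or with cct or pdia and a number, together with tcp1, leaving out hspg2 and joined names. The rule itself uses no measured value, though it was set with earlier results of these data known. It gave 93 genes of the 14428 rows. RNA had been sequenced from zebrafish embryos carrying the transgene crestin_1kb:EGFP, in which a fragment of the neural crest gene crestin drives EGFP. Embryos at the 15 SS stage were dissociated and sorted by fluorescence into about 5500 EGFP-positive cells and 100000 EGFP-negative cells, each giving 1 library, named the positive and the negative fraction here. Both fractions came from the same transgenic embryos, whose number is not stated in the labels, so the negative fraction holds the remaining cell types of the embryo together.

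Chaperones bind exposed stretches of unfolded chains and release them in cycles driven by ATP. HSP70 proteins take up chains that J proteins deliver, and HSP90 proteins receive some of these as late clients through bridging cofactors. The ring-shaped chaperonins, TRiC in the cytosol and HSP60 with HSP10 in mitochondria, enclose a chain while it folds. The endoplasmic reticulum (ER) has its own set for secreted and membrane proteins, in which lectin chaperones hold sugar-bearing chains, protein disulfide isomerases (PDI) pair cysteines and FKBP proteins turn proline bonds. In embryonic muscle a branch of the HSP90 system folds myosin.

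Levels are given as FPKM, by definition fragments scaled by gene length and by the mapped fragments of the library. Any further normalisation between the libraries is not given. Ratios between different genes also depend on the gene models, which are not given, and describe the listed values alone. With 1 library in each group there is no replicate error and no test, and every difference below describes these 2 libraries. The log2 ratio is log2(FPKM + 1) in the positive fraction minus the same in the negative one. A gene is called higher or lower in the positive fraction at 2-fold or more on that scale, among genes that reach 1 FPKM in either library. The added 1 FPKM understates the ratio of low genes. A value listed at 0 can be a lost estimate, so no fold is given against it. In sorted populations, fewer cells of a type and less RNA per cell cannot be told apart.

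The 6 neural crest markers sox10, foxd3, tfap2a, ednrab, pax7a and pax7b lay between 74.2 and 229.5 FPKM in the positive fraction and between 4.63 and 44.6 FPKM in the negative one, each called higher. The summed FPKM of 6 skeletal muscle markers was 74.0 against 212, that of 4 heart markers 259.7 against 1754, and that of 3 hatching gland markers 1628 against 532. Muscle and heart genes were thus less represented in the positive fraction and hatching gland genes more, and their part in the values below was not tested. All value columns of the table matched a library, and the depth of the libraries is unknown.

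Of the 93 chaperone genes, 75 reached 1 FPKM in either library. Another 16 were listed at 0 in both, namely hspb2, hspb3, hspb6, hspb9, hspb11, hspb15, dnajb4, dnajb13, dnajc15, dnajc17, dnajc24, dnajc28, fkbp1ab, fkbp5, fkbp6 and pdia2. The last 2 were hsp70 and hsp70l, the heat-inducible HSP70 genes, at 0.385 and 0.213 FPKM in the negative fraction and listed at 0 in the positive one. These near-identical copies can share reads. Both were thus under 1 FPKM or listed at 0, and the listed values do not show whether the transcripts were absent.

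Among the 75 measured genes 13 were higher, or 17.3%, where 22.9% of all 9685 rows considered were higher. Another 13 were lower, also 17.3%, where 26.5% of all rows were lower. The median log2 ratio was 0.18 over the chaperones and -0.04 over all rows. Listed at 0 in 1 library were 8 chaperones, or 10.7%, against 23.1% of all rows. The chaperone genes together accounted for 1.29% of all FPKM in the positive fraction and 1.27% in the negative one, and for 1.501% and 1.363% when rn7sk was left out of the total.

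**Figure D1:**
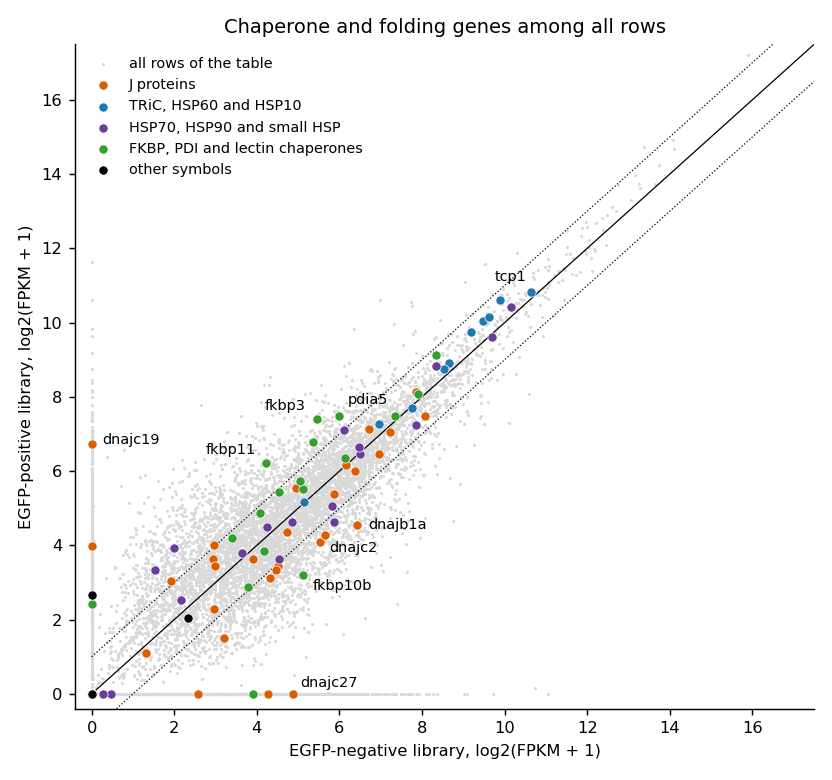
Each point is 1 gene, with log2(FPKM + 1) in the negative fraction on the x axis and in the positive fraction on the y axis; grey points are all 14428 rows and coloured points the 93 chaperone genes by class. The solid line marks equal values and the dotted lines 2-fold; the most abundant chaperones lie close to the solid line and points on an axis are listed at 0 in the other library.

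Abundant chaperones lay closer together than scarce ones. Of the 22 whose geometric mean reached 100 FPKM, 1 was at least 2-fold apart, which is 4.55% against 18.8% of the 1202 rows of that abundance. That gene was pdia5. The limit of 100 FPKM was not varied, and the share depends on it. Next below it lay hspa5 and fkbp3, both called higher, and hsp90ab1 and hspa4b, both within 2-fold. Of the 45 chaperones above 0 in both libraries and below 100 FPKM, 17 were at least 2-fold apart, or 37.8%, against 37.2% of 6247 such rows. At low and middle levels the share was thus close to that of the rest of the table.

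**Figure D2:**
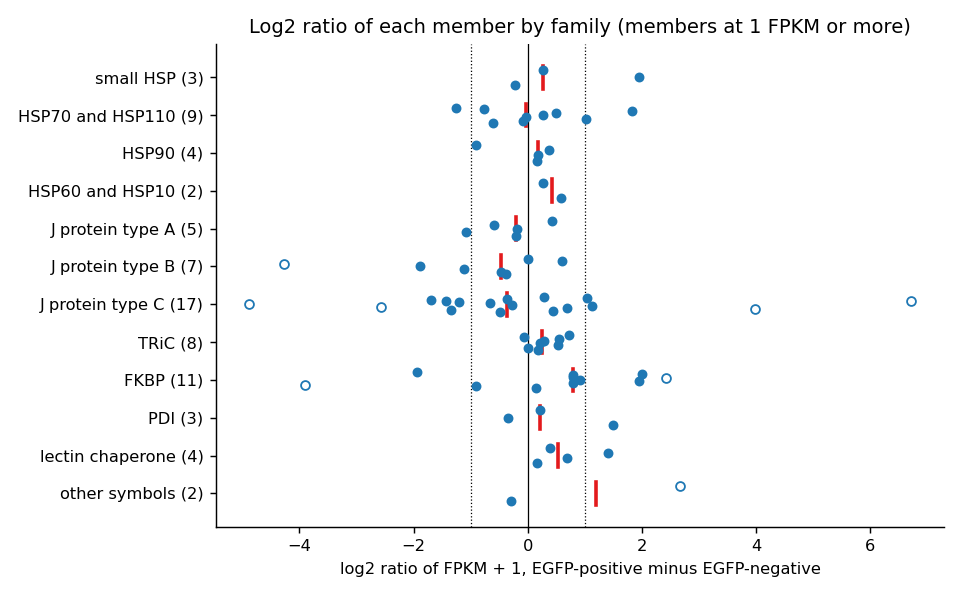
Each point is 1 chaperone gene that reached 1 FPKM, placed by its log2 ratio, positive minus negative, on the x axis and by family on the y axis, with the number of genes in brackets; open points are listed at 0 in 1 library and red bars are family medians. TRiC and HSP90 genes stay within 2-fold, between the dotted lines, while J proteins and FKBP genes extend past them on both sides.

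TRiC, the cytosolic chaperonin that folds actin and tubulin, held the largest share of chaperone transcripts, 43.7% of the members' summed FPKM in the positive fraction and 40.9% in the negative one. None of its 8 measured subunits was 2-fold apart, and the median log2 ratio was 0.25. Tcp1, the alpha subunit, stood at 1801 FPKM in the positive and 1587 FPKM in the negative fraction. Cct2 stood at 1548 against 939 FPKM, the widest difference in the complex, a ratio of 1.65. Cct7 was at 1139 against 789 FPKM and cct4 at 853 against 583 FPKM. These 4 subunits formed the abundant part of the complex in both fractions.

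The other 4 subunits were scarcer. Cct6a was at 427 FPKM in the positive fraction against 367 FPKM, and cct3 at 205 against 216 FPKM. Cct5 was at 152 against 124 FPKM, and cct8, the scarcest, at 34.7 against 34.5 FPKM. The subunits therefore had the same rank order of listed levels in both libraries. The assembled ring holds them in equal numbers, and whether the transcripts differ as much as the listed values was not tested. The level of tcp1 was 51.8 times that of cct8 in the positive fraction and 46.0 times in the negative one. As deposited, 7 of 8 subunits were higher in value in the positive fraction, cct3 being the exception. Of all 9685 rows considered, 4700 were higher in value as deposited. After each library was rescaled to the same sum without rn7sk or to the same upper quartile, 6 of 8 subunits were higher in value.

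Mitochondrial chaperonin genes were also close. Hspe1, the HSP10 lid, stood at 1062 FPKM in the positive fraction against 712 FPKM, a ratio of 1.49. Hspd1, the HSP60 barrel, stood at 478 against 399 FPKM, a ratio of 1.20. The lid transcript exceeded the barrel transcript in level in both fractions, by 2.22 times in the positive and 1.79 times in the negative fraction.

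**Figure D3:**
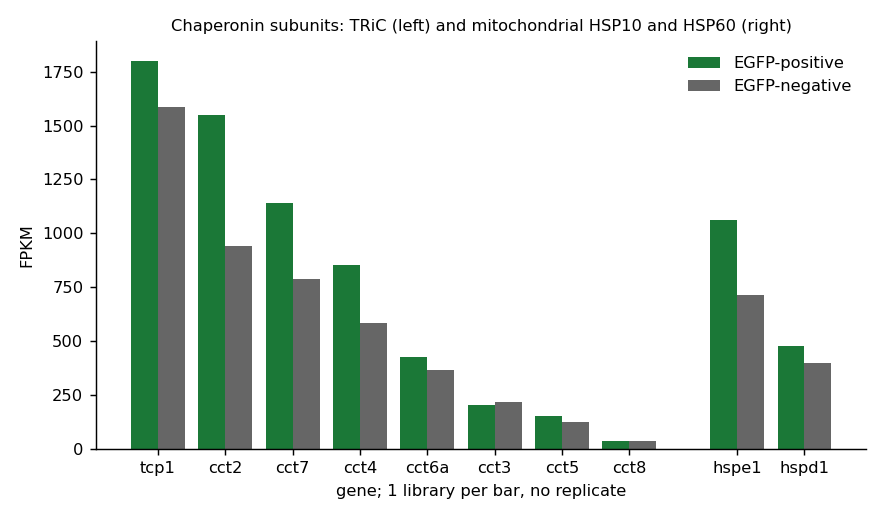
Bars give the FPKM of each chaperonin gene on a linear y axis from 0, green for the positive and grey for the negative fraction, 1 library each. The order of the 8 TRiC subunits, from tcp1 at 1801 and 1587 FPKM down to cct8 at 34.7 and 34.5 FPKM, is the same in both libraries.

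Genes that feed or assist TRiC were measured beside it. Prefoldin hands unfolded actin and tubulin to TRiC, and tubulin cofactors act after it. Of 12 measured genes of the prefoldin and tubulin folding list, none was higher, against 22.9% of all rows. Of the 12, 6 were lower, against 26.5% of all rows, and the median log2 ratio was -0.90. These counts were not repeated after rescaling. Vbp1, a prefoldin subunit, stood at 265.9 FPKM in the positive fraction against 674 FPKM, and the prefoldin subunit pfdn6 at 19.9 against 97.2 FPKM. The TRiC regulators txndc9 (255 against 540 FPKM) and pdcl (2.71 against 27.5 FPKM) were lower too. Tbca, which binds beta-tubulin, was at 46.8 against 122 FPKM, and tbccl, a row that the gene tables assign to tbcc, was listed at 0 against 40.0 FPKM. The prefoldin subunits were not lower throughout, since pfdn1 (451 against 322 FPKM) and pfdn2 (26.1 against 15.6 FPKM) were higher in value without reaching 2-fold, and pfdn5 stood at 230.5 against 383 FPKM.

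The core of the cytosolic HSP70 and HSP90 system stood at nearly the same level in both fractions. Hspa8, the constitutive HSP70, was at 786 FPKM in the positive fraction and 829 FPKM in the negative one. Of the HSP110 exchange factors, hspa4b stood at 87.4 against 89.7 FPKM and hspa4a at 21.7 against 17.9 FPKM. Hsp90ab1, the constitutive HSP90, was at 100.2 against 88.1 FPKM. Each of these genes thus differed far less between the fractions than the 2-fold threshold.

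Of the 4 HSP90 genes none reached a 2-fold difference, where 22.9% of all rows were higher and 26.5% lower. Hsp90b1, the ER member, was at 12.9 FPKM in the positive fraction against 11.4 FPKM. Hsp90aa1.1 stood at 11.3 against 22.1 FPKM, a log2 ratio of -0.91, just short of the threshold, and reached it when the libraries were rescaled to the same sum without rn7sk. Its neighbour copy hsp90aa1.2 stood at 4.80 against 3.49 FPKM. Because the 2 copies are near-identical, their reads can be split, and their sums were 16.1 against 25.6 FPKM. In zebrafish hsp90aa1.1 works with unc45b and smyd1b to fold myosin in developing muscle.

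Both of those muscle partners were lower in the positive fraction. Unc45b, the myosin chaperone, stood at 12.9 FPKM against 82.8 FPKM. Smyd1b, a methyltransferase of myofibril assembly, stood at 17.6 against 88.2 FPKM. Unc45a, the general relative of unc45b, was higher, at 11.5 against 4.21 FPKM. The skeletal muscle and heart markers moved with these genes, 4 of 6 and 4 of 4 of them being lower, and their part was not tested; tnnt3b, at 8.29 FPKM, was the muscle marker called higher.

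Among cofactors of HSP90 and HSP70, the muscle genes included, more were lower than higher. Of 26 measured genes listed outside the symbol rule, 3 were higher and 10 lower, with a median log2 ratio of -0.20, where 22.9% and 26.5% of all rows were higher and lower. Stip1, which bridges HSP70 to HSP90, stood at 224.6 FPKM in the positive fraction against 511 FPKM, so that hspa8 was 3.50 times its level there and 1.62 times in the negative fraction. Ttc4, an HSP90-binding protein, was at 12.5 against 30.9 FPKM. The row zgc:56178, which the gene tables assign to rpap3, was at 43.8 against 163.5 FPKM. Cdc37l1 (26.8 FPKM) and pih1d1 (14.2 FPKM) were listed at 0 in the positive fraction.

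Of the other HSP90 cofactors, 3 abundant ones stood nearly equal in the fractions. Ptges3b, the p23 protein that stabilises closed HSP90, was at 370.5 FPKM against 366 FPKM, and ppid, a cyclophilin of the HSP90 complex, at 432 against 429.9 FPKM. The row ahsa1l, assigned to ahsa1b, which speeds the HSP90 ATPase, was at 281 against 292 FPKM. Scarcer ones differed more, tomm34 standing at 24.4 against 12.3 FPKM, sgut1, assigned to sugt1, at 35.5 against 20.8 FPKM, and cdc37, which brings kinases to HSP90, at 7.37 against 11.3 FPKM. The BAG exchange factors of HSP70 diverged. Bag2 stood at 25.9 against 149 FPKM and bag1, at 30.4 FPKM, was listed at 0 in the positive fraction, whereas bag4 (14.9 against 3.36 FPKM) and bag5 (15.9 against 5.52 FPKM) were higher.

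**Figure D4:**
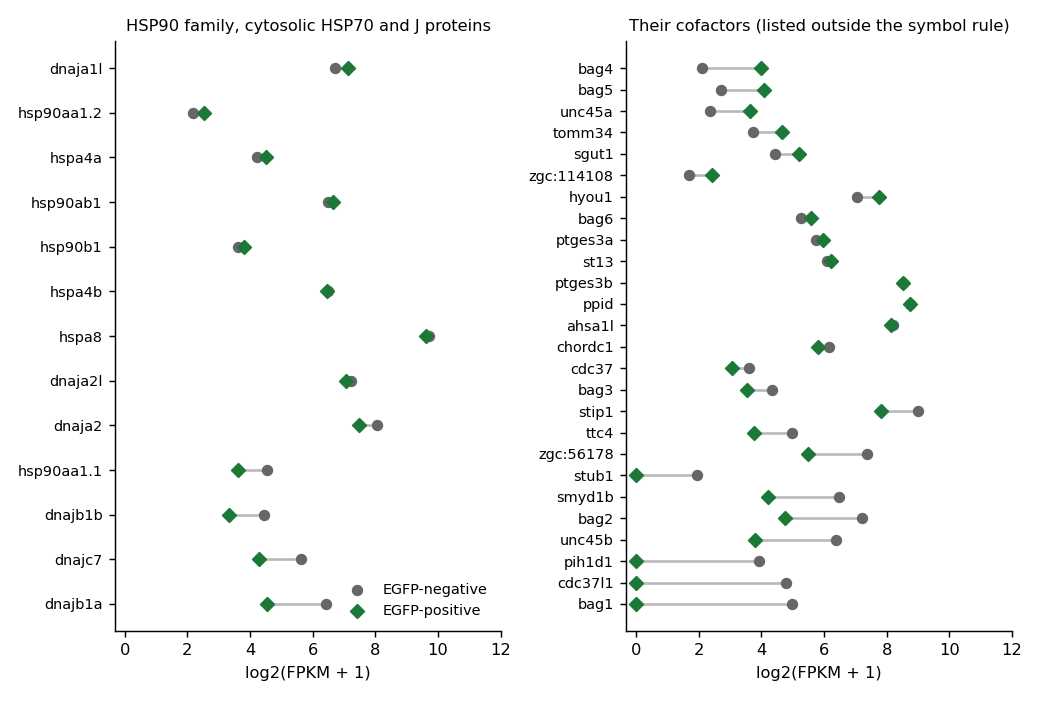
Log2(FPKM + 1) on the x axis for 13 genes of the HSP90 family and of the cytosolic HSP70 and J protein system (left) and for the 26 measured cofactors (right), ordered by log2 ratio; green diamonds are the positive and grey circles the negative fraction. Hspa8, hsp90ab1, ptges3b and ppid overlap, while unc45b, smyd1b, bag2, stip1 and dnajb1a lie to the left in the positive fraction.

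J proteins, which load HSP70 and set where it acts, were the chaperone class with the most genes. Of 29 measured, 4 were higher, or 13.8% against 22.9% of all rows, and 10 lower, or 34.5% against 26.5%, and the median log2 ratio was -0.37. After rescaling to the same sum without rn7sk 2 were higher and 10 lower, where 20.6% and 29.2% of all rows were. After rescaling to the same upper quartile 3 were higher and 10 lower, where 21.8% and 27.8% of all rows were. Both copies of dnajb1, the main J protein of the heat shock response, were lower. Dnajb1a stood at 22.4 FPKM in the positive fraction against 85.5 FPKM and dnajb1b at 9.07 against 20.9 FPKM, and their sums were 31.5 against 106 FPKM. Hsf2, a heat shock factor, was at 12.7 against 26.5 FPKM and only just called lower, at a log2 ratio of -1.004. Hsf1, the main regulator of the heat shock response, was at 72.5 against 92.4 FPKM.

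The general type A partners of hspa8 stayed within 2-fold. Dnaja1l, assigned to dnaja1, was at 139 FPKM in the positive fraction against 104 FPKM. Dnaja2 was at 176 against 267 FPKM and dnaja2l at 131 against 149 FPKM. The aggregation suppressors dnajb6a and dnajb6b were at 40.9 against 57.1 FPKM and 63.2 against 82.2 FPKM, both lower in value by less than 2-fold. Dnajc7, which holds both HSP70 and HSP90, was called lower, at 18.6 against 49.0 FPKM.

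J proteins of the ribosome and nucleus followed no single direction. Dnajc2 sits on the ribosome with hspa14, an HSP70 relative, to receive nascent chains, and the partners differed in direction. Dnajc2 stood at 16.2 FPKM in the positive fraction against 45.4 FPKM, and hspa14 at 457 against 324 FPKM. The level of hspa14 was thereby 28.2 times that of dnajc2 in the positive and 7.14 times in the negative fraction. Dnajc21, a factor of ribosome maturation, was at 7.69 against 18.9 FPKM. Dnajc9, a histone co-chaperone, was at 87.9 against 124 FPKM and dnajc8, a splicing-linked J protein, at 9.85 against 6.98 FPKM, neither 2-fold apart.

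In mitochondria, hspa9, the HSP70 of the matrix, stood at 150.2 FPKM in the positive fraction against 228 FPKM. Dnaja3a, its J protein, was lower, at 9.84 against 22.0 FPKM, and dnaja3b was scarce in both, at 1.17 against 1.49 FPKM. Dnajc11, a protein of the cristae, was at 19.5 against 25.4 FPKM. Dnajc19, a subunit of the protein import motor, stood at 104 FPKM in the positive fraction and was listed at 0 in the other. Grpel1, the exchange factor of hspa9, was at 61.3 against 51.1 FPKM. The matrix HSP70 machinery thus had no common direction. The 7 measured mitochondrial members had 1 higher and 1 lower gene, or 14.3% each, where 22.9% and 26.5% of all rows were.

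Mitochondrial folding genes outside the symbol rule were also mixed. Of 7 measured, 1 was higher and 1 lower, where 22.9% and 26.5% of all rows were. Clpx, an unfoldase, was higher, at 20.6 against 5.58 FPKM. The row si:ch211-207k7.4, assigned to the J protein gene hscb, was lower, at 6.57 FPKM in the negative fraction and listed at 0 in the positive one. The other 5 lay within 2-fold.

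Several of the remaining J proteins were low or listed at 0 in 1 library. Dnajb12a, of the ER membrane, stood at 46.0 FPKM against 30.0 FPKM, and its duplicate dnajb12b, at 18.4 FPKM in the negative fraction, was listed at 0 in the positive one. The listed values of the pair summed to 46.0 and 48.3 FPKM. Dnajc27, a small GTPase with a J domain, was at 28.3 FPKM in the negative fraction and listed at 0 in the positive one. Dnajc18 stood at 1.85 against 8.21 FPKM, dnajc4 at 7.30 against 2.82 FPKM and dnajc25 at 3.88 against 6.75 FPKM.

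The cysteine string proteins, J proteins of secretory and synaptic vesicles, split by gene. Dnajc5gb (14.8 FPKM) was listed at 0 in the negative fraction and dnajc5aa (4.92 FPKM) in the positive one, and dnajc5ga was at 11.3 against 6.61 FPKM.

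In the ER, more genes were higher than lower in the positive fraction. Of 20 measured genes grouped as working in the ER, 6 were higher, or 30.0%, and 2 lower, or 10.0%, with a median log2 ratio of 0.33. In all rows 22.9% were higher and 26.5% lower. This grouping by compartment was made from general knowledge after the values had been seen. It did not count all J proteins of the ER membrane, such as dnajb12a, dnajb12b and dnajc18. Of these, dnajb12b and dnajc18 were called lower and dnajb12a lay within 2-fold. After the libraries were rescaled to the same sum without rn7sk or to the same upper quartile, 4 were higher and 2 lower, because hspa5 and dnajc10 lay close to the threshold. The share of higher ER genes was then 20%, close to the 20.6% and 21.8% of all rows under these settings. The ER median fell to 0.16 with the same-sum rescaling, where that of all rows was -0.21.

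Hspa5, the ER HSP70 known as BiP, stood at 138 FPKM in the positive fraction against 67.7 FPKM, a log2 ratio of 1.01. Its J protein dnajc10, a disulfide reductase, was at 15.1 against 6.84 FPKM, and hspa13, a less known ER HSP70, at 9.20 against 1.88 FPKM. The other J proteins counted in the ER group lay within 2-fold. Dnajb11 was at 70.9 against 70.5 FPKM, dnajc3 at 11.4 against 13.9 FPKM and dnajc1 at 278 against 229 FPKM. Relative to hsp90b1, which shares its clients, the level of hspa5 was 10.6 times in the positive and 5.94 times in the negative fraction. Hyou1, the exchange factor of hspa5, was at 213 against 131 FPKM, short of 2-fold.

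Protein disulfide isomerases differed among themselves. Pdia5 stood at 177 FPKM in the positive fraction against 62.4 FPKM, a ratio of 2.84. Pdia3, which works with calreticulin, was at 80.8 against 69.2 FPKM, and pdia4 at 13.3 against 17.1 FPKM. The PDI gene p4hb, outside the symbol rule, was at 559 against 389 FPKM, and pdip5, an older name of pdia6, at 66.2 against 68.7 FPKM. Only pdia5 of these 5 genes passed 2-fold.

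All lectin chaperones were at least as high in value in the positive fraction as deposited, and canx was not after rescaling to the same sum without rn7sk. Calrl, an older name of calr3b, was the called gene, at 108 against 40.4 FPKM. Calrl2 was at 52.2 against 31.9 FPKM and the row calr at 44.5 against 33.9 FPKM. The gene tables give calr also as an older name of calr3a and calrl2 as an older name of calr, so these rows are identified by the names in the table. Canx, the membrane-bound calnexin, stood at 179 against 160.4 FPKM.

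FKBP prolyl isomerases had a median log2 ratio of 0.79 over 11 measured genes, and between 0.62 and 0.83 under the 3 rescalings. Of these 11, 3 were higher, or 27.3%, and 2 lower, or 18.2%, near the 22.9% and 26.5% of all rows. Fkbp11, an ER member of secretory cells, stood at 73.8 FPKM in the positive fraction against 17.8 FPKM, and fkbp3, a nuclear member, at 167 against 42.6 FPKM. Fkbp1b was at 4.33 FPKM and listed at 0 in the negative fraction. Abundant fkbp1aa, a regulator of calcium channels and of TGF-beta receptors, was at 561 against 325 FPKM. HSP90-binding fkbp4 was at 28.0 against 15.8 FPKM, and fkbp8, of the mitochondrial surface, at 6.36 against 12.7 FPKM.

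The remaining ER members of the FKBP family were divided. Fkbp10b, a collagen chaperone, stood at 8.18 FPKM in the positive fraction against 34.0 FPKM, and fkbp7, at 14.0 FPKM in the negative fraction, was listed at 0 in the positive one. Fkbp14, which also serves collagen, was at 17.2 against 9.59 FPKM, fkbp2 at 42.6 against 22.2 FPKM and fkbp9 at 267 against 240.1 FPKM. The collagen chaperone serpinh1b, known as HSP47 and outside the symbol rule, was at 110.2 against 166 FPKM.

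The remaining ER folding genes mostly lay within 2-fold. Of 22 measured outside the symbol rule, 3 were higher and 3 lower, where 22.9% and 26.5% of all rows were, with a median log2 ratio of 0.24. Creld2, an ER stress gene that binds disulfide isomerases, was at 37.3 FPKM in the positive fraction against 2.15 FPKM, and the row zgc:153032, assigned to the oxidase gene ero1b, at 6.61 against 1.91 FPKM. Tmx1 (30.3 FPKM) was listed at 0 in the negative fraction. Manf, a secreted ER stress factor, went the other way, at 32.2 against 122 FPKM, and cnpy1 (13.3 FPKM) and cnpy4 (34.6 FPKM) were listed at 0 in the positive fraction.

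Stress sensors and genes of ER degradation were measured beside them, on 1 list with transcription factors of the ER response, heat shock factors and genes downstream of ATF4. Of the 20 measured genes of this whole list, 8 were higher and 3 lower, where all rows had 22.9% and 26.5%. The 8 included asns and chac1 and the 3 included hsf2, which are neither sensors nor degradation genes. The median log2 ratio was 0.13. The 3 derlins, which export misfolded proteins, were all higher, derl3 at 21.6 FPKM against 2.55, derl1 at 31.8 against 12.7 and derl2 at 7.44 against 3.19 FPKM. Derl2, at a log2 ratio of 1.01, lay as close to the threshold as hspa5. The counts of this list were not repeated after rescaling. Herpud1, another degradation factor, was at 8.02 against 1.81 FPKM. Other degradation genes pointed the opposite way in value: os9 (3.88 FPKM in the negative fraction) was listed at 0 in the positive one and called lower, and edem1 (12.1 against 21.7 FPKM), sel1l (3.70 against 6.68 FPKM) and syvn1 (35.4 against 43.8 FPKM) lay within 2-fold. The sensor gene ern1 (11.02 FPKM) and the stress factor ddit3 (10.8 FPKM) were listed at 0 in the negative fraction.

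Among transcription factors of the ER response, transcripts of xbp1, atf6 and atf4b1 lay within 2-fold. Atf6b was called lower, and ddit3, given above as listed at 0 in the negative fraction, was called higher. Their proteins were not measured. Xbp1 stood at 209 FPKM against 208 FPKM, atf6 at 124 against 147 FPKM and atf4b1 at 325 against 274 FPKM, while atf6b was lower, at 5.72 against 15.8 FPKM. Of genes downstream of ATF4, asns (54.4 against 15.9 FPKM) and chac1 (27.7 against 8.80 FPKM) were higher and trib3 was at 78.5 against 56.7 FPKM. Among secretory hatching gland genes, he1a stood at 1004 against 159.9 FPKM and he1b at 134 against 31.6 FPKM, both called higher. Cd63, which was not called, was at 490.0 against 341 FPKM. All 3 kidney markers were higher as well, with a summed 169.6 against 41.2 FPKM, as were 2 of 4 epidermis markers, with a summed 377 against 206 FPKM. Of 3 notochord markers 0 were higher and 2 lower, col9a1 (4.46 FPKM) and shha (3.64 FPKM) being listed at 0 in the positive fraction. The part of these cell types in the ER values was not tested.

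**Figure D5:**
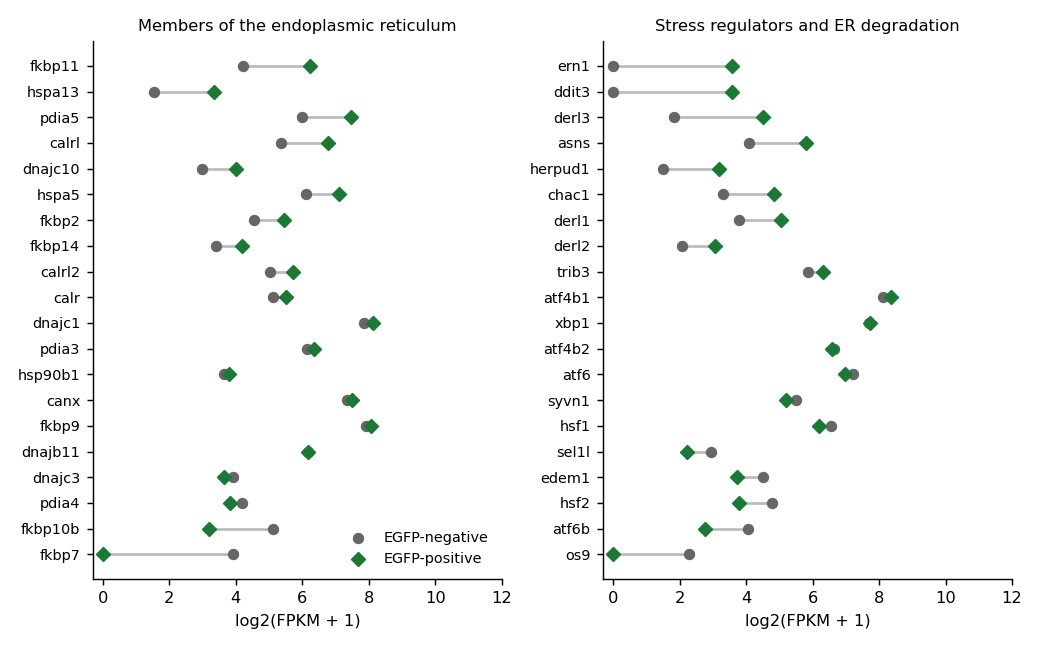
Log2(FPKM + 1) is on the x axis for the 20 measured chaperone genes of the ER (left). The right panel holds the 20 measured genes of the stress regulator and ER degradation list, which includes hsf1, hsf2, asns, chac1 and trib3. Genes are ordered by log2 ratio, with green diamonds for the positive and grey circles for the negative fraction. Fkbp11, hspa13, pdia5 and calrl head the left panel and the 3 derlins are among the 8 called higher in the right one, while hsp90b1, canx, dnajb11, xbp1 and atf6 nearly overlap.

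Small heat shock proteins, which hold unfolding proteins without ATP, rested on 1 gene. Hspb1 stood at 1373 FPKM in the positive fraction against 1141 FPKM, a ratio of 1.20, and made up nearly all of the family's summed 1411 and 1171 FPKM. Hspb8, which clears aggregates together with bag3, was at 23.7 against 27.9 FPKM, and bag3 at 10.7 against 19.5 FPKM. Hspb7, known from heart and skeletal muscle, was higher in the positive fraction, at 14.2 against 2.96 FPKM. All 4 heart markers and 4 of 6 skeletal muscle markers were lower there, while tnnt3b was called higher, and their part was not tested. The alpha-crystallins cryaa, cryaba and cryabb, small heat shock proteins of the lens and muscle, were listed at 0 in both libraries, and of the 6 lens crystallin genes crybb1 alone was measured, at 5.64 FPKM in the positive fraction and 0 in the other.

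The unusual HSP70 relatives hspa12a and hspa12b were lower in value. Hspa12a stood at 23.7 FPKM in the positive fraction against 57.7 FPKM and was called lower. Hspa12b, a gene of blood vessel cells, stood at 32.1 against 55.5 FPKM. The summed FPKM of 4 endothelial markers was 139.7 against 603, with cdh5 at 2.70 against 50.3 FPKM, and their part was not tested.

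Cyclophilins, the other large class of prolyl isomerases, were split. Of 14 measured, 1 was higher and 4 lower, where 22.9% and 26.5% of all rows were, with a median log2 ratio of 0.17; ppib and ppid are counted on other lists too. The most abundant, ppiab, stood at 2598 FPKM in the positive fraction against 1658 FPKM. The row zgc:86715, assigned to ppil3, was at 106 against 19.3 FPKM, whereas ppih, of the spliceosome, was at 35.0 against 82.3 FPKM and mitochondrial ppifb at 7.03 against 16.5 FPKM. Ppie (52.8 FPKM) was listed at 0 in the positive fraction.

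The symbol rule also took up 3 rows that were set apart from the families. Hspbp1, an exchange factor that binds HSP70, was at 3.11 FPKM in the positive fraction against 4.05 FPKM. Hspbap1 was at 5.39 FPKM and listed at 0 in the negative fraction, and hspb11 was listed at 0 in both. The gene tables give hspb11 also as an older name of hspb9l, so this row is identified by its name alone. Without these 3, 12 of 73 measured genes were higher and 13 lower, or 16.4% and 17.8%, against 22.9% and 26.5% of all rows.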

How the data were processed

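Per the labels' protocols, RNA of the sorted cells was extracted with Trizol and a carrier, depleted of ribosomal RNA, and made into libraries with a low-input kit for Illumina sequencing. The authors deposited FPKM values, 1 row per symbol and 1 column per library; the submitters' processing notes name cutadapt, TopHat2 2.0.11, Cufflinks 2.2.1 and the build Zv9. The annotation, the options and any normalisation across libraries: not given in the sources used here. Ratios of 712 low rows, under 6 FPKM in both libraries, showed no steps of whole reads (at most 1.54% in a bin of 0.02 on the log2 scale), so the depth is unknown and no counting interval is given.

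Ratios, counts and medians were computed with Python 3.11.15 and pandas 2.3.3. The pseudocount was 1 FPKM, the minimum 1 FPKM in either library and the threshold 2-fold. The calls alone were checked on made data, a copy of the negative library with set fold changes and no noise. That check covers the computation and not the error of the values. Members and the 7 other gene lists were chosen with earlier results of these data known. The members comprised 85 rows with a current symbol in the RefSeq gene table of assembly GRCz12tu, used for names alone, and 8 with an older one; listed genes without a row of their own were matched through older names. Named were members and listed genes at least 2-fold apart that reach 5 FPKM, genes at 0 in 1 library that reach 5 FPKM in the other, the 3 most abundant of each family, and all TRiC and HSP90 genes; others are given to complete a family. Pseudocount, minimum, rows at 0, scaling and threshold were varied for the members and all rows. The counts of the 7 other gene lists were not repeated under these settings. One gene of the cofactor list is not reported here and is left out of its counts.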

Additional observations from a re-analysis of the deposited data

How the results depend on the processing

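No paired analysis was possible because each group has 1 library. The counts of 13 higher and 13 lower chaperones stayed within 1.5 times under the other settings, apart from these. With a pseudocount of 5 FPKM 8 were lower; with a minimum of 20 FPKM 6 were higher and 8 lower; at a threshold of 1.5-fold 21 were higher; at 3-fold 8 were higher and 7 lower. Fewer genes can pass a larger pseudocount, minimum or threshold by construction. Rescaling to the same sum without rn7sk moved the median of all rows by -0.16, to -0.21, and that of the chaperones to 0.01, which is 0.22 above all rows, against 0.23 as reported; the HSP60 and HSP10 median became 0.25. The median of the 2 measured other symbols was 2.70 with a pseudocount of 0.1 FPKM against 1.19 as reported. Between 14 and 26 of the 26 called chaperones kept their call. None changed sign, which these settings could not bring about for genes at least 2-fold apart. With 1 library per group and unknown depth, no difference has an error, least of all among low values or those listed at 0.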

Other observations

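Of the rows outside the symbol rule, 9 carry older names that the RefSeq gene table assigns to a chaperone symbol, and 6 of these reached 1 FPKM. The row zgc:77086, assigned to pdia7, a disulfide isomerase gene, stood at 222 FPKM in the EGFP-positive fraction against 253 FPKM. The row zgc:153268, assigned to the J protein gene dnajb2, was at 30.7 FPKM in the negative fraction and listed at 0 in the positive one. The row zgc:114162, assigned to the ER J protein gene dnajb9a, was at 2.97 against 8.51 FPKM, and zgc:153638, assigned to dnajb14, at 10.6 against 13.7 FPKM. The row prkri, assigned to dnajc3b, was at 12.6 against 5.24 FPKM. Pdip5 is given with the disulfide isomerases. The remaining 3 rows were listed at 0 in both libraries.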
